A study of Mus musculus with 35 samples.

Results

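The 10 genes described here are known from the absorbing and secreting surface layer of the visceral endoderm, though not all are confined to it. They were followed by RNA-seq. They are Afp, Ttr, Apoa1, Apob, Apoe and Rbp4, which encode secreted carrier proteins, and Cubn, Amn, Lrp2 and Dab2, which encode an endocytic receptor apparatus. They were taken by gene symbol from 3 tables of normalized counts, in which 10 of 18930 gene symbols were members. On day 3, 9 of 17948 genes were members, because Apoa1 was not among the rows of that table, whose lowest gene mean was 9.46. All 10 were present among 18091 genes of the Dnmt1 experiment and 17705 genes of the Tet3-CD experiment.

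The cells were V6.5 male mixed 129/C57BL/6 mouse embryonic stem cells (ESCs) differentiated towards neuroectoderm by withdrawal of LIF and 72 h of 1 µM retinoic acid, according to the labels of all groups. Genotypes were Tet3+/+, Tet3 m/m, in which substitutions in the iron-binding site remove the catalytic activity of TET3, and Tet3-/-, in which exon 4 is deleted. The day 3 cells comprised 3 Tet3+/+, 3 Tet3 m/m and 2 Tet3-/- samples, which the study describes as independent clones. In the Dnmt1 experiment, each genotype received an empty vector or a Dnmt1 expression vector, with 2 samples in each of 6 groups, and in the Tet3-CD experiment an empty vector or the catalytic domain of TET3 (Tet3-CD), with 1 sample in each of 6 groups. The study's methods give the vectors different schedules. Cells for the Dnmt1 experiment were transfected as ESCs at the start of differentiation and selected with blasticidin on its last day, whereas Tet3-CD cells were transfected on the second day and collected a day later than the other cells, which differs from the label. The study states in general terms that its replicates are biological unless its methods say otherwise. How the 2 samples of a group in the Dnmt1 experiment were taken is not given in the sources used here, so their p-values measure the spread between those samples, which may be technical. The sequencing depth ranged per sample from 36594650 to 47710548 reads on day 3. It ranged from 31155842 to 50845950 for the Dnmt1 samples and from 33475041 to 37707719 for the Tet3-CD samples.

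Visceral endoderm is the extraembryonic epithelium that surrounds the early mouse embryo and feeds it before a placenta forms. Its cells take up maternal proteins through a receptor complex of cubilin and its membrane anchor amnionless, together with megalin, the large receptor encoded by Lrp2, and the clathrin adaptor DAB2. They also secrete alpha-fetoprotein, transthyretin, apolipoproteins and retinol-binding protein, much as fetal liver does. GATA, FOXA and HNF4 transcription factors are known regulators of this program, and retinoic acid is a classical inducer of endoderm in cultured stem cells.

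As a check of the labels, the day 3 level of Tet3 came to 4613, 4576 and 5020 normalized counts for Tet3+/+, 2666, 2277 and 1945 for Tet3 m/m and 1796 and 2329 for Tet3-/-. A normalized count is a read count divided by the size factor of its library. In empty vector cells of the Dnmt1 experiment the levels were 2957 and 3075 for Tet3+/+, 1125 and 964 for Tet3 m/m and 2520 and 2571 for Tet3-/-. The samples labelled Tet3-/- thus stood well below Tet3+/+ on day 3 and little below it in the Dnmt1 experiment, where they differed by -0.24 on the log2 scale (SE 0.08, limma adjusted p 0.0114, Benjamini-Hochberg adjusted over all genes as throughout). Values summed over a gene resolve neither the deleted exon nor the substitutions, so they do not check either genotype. Dnmt1 had 14679 and 15225 normalized counts in Tet3+/+ cells given the empty vector and 22799 and 23768 in those given the Dnmt1 vector, and it was also higher with the vector in Tet3 m/m (11934 and 11285 against 20245 and 23211) and in Tet3-/- (17356 and 17554 against 33380 and 39854).

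RefSeq promoter windows (GRCm38.p6, 250 bases before to 50 after a start) were at hand for 9 of the 10 genes, in 13 windows. Letters known from 3 families of endoderm factors were searched on both strands: TGTTTNC for FOXA, NGATAA for GATA and CAAAGNNCA for HNF4. The HNF4 letters were found for 4 of 9 members, in 4 of 13 windows, against 6.36% of all 32851 windows of this length, and the FOXA letters in 5 of 13 windows against 20.5%. The GATA letters were in 3 of 13 windows against 25.3%. The 4 windows with HNF4 letters are shown because they belong to both secreted proteins (Afp, Apob) and uptake receptors (Cubn, Lrp2). Capitals mark each stretch that matched 1 of the 3 searches, which did not overlap one another here, and every sequence reads 5′ to 3′ on the strand of its gene.
Afp, chr5:90490464-90490763, plus strand: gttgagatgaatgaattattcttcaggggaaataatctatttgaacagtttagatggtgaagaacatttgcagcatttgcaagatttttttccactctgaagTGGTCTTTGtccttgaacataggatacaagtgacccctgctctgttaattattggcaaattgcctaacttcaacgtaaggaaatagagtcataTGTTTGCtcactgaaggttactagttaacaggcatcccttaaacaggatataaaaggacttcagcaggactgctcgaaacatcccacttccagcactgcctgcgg
Apob, chr12:7977427-7977726, plus strand: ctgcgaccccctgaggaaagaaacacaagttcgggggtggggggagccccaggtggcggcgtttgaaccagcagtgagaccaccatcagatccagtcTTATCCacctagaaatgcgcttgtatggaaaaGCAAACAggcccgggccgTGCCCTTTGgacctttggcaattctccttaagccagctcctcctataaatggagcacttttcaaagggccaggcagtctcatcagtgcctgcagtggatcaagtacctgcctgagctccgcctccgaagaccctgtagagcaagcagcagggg
Cubn, chr2:13491827-13492126, minus strand: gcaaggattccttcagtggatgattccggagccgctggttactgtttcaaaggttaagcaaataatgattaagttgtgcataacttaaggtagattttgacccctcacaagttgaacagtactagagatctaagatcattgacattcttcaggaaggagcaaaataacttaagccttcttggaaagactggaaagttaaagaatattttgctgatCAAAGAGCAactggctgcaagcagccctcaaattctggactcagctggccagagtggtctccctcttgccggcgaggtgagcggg
Lrp2, chr2:69585980-69586279, minus strand: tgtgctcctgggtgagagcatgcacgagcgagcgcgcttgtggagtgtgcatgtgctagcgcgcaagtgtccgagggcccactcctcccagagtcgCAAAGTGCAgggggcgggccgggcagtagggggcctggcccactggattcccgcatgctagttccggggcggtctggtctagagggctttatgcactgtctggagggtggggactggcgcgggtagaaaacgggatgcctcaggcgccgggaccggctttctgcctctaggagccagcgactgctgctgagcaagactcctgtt
A match is a description of letters and not a bound site. The Afp window held HNF4 and FOXA letters, the Apob window HNF4, FOXA and GATA letters, and the Cubn and Lrp2 windows HNF4 letters alone. The Amn window held none of the 3.

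On day 3, 5 of the 9 members were higher in Tet3 m/m than in Tet3+/+ cells, and none was lower. A gene was called here where its limma adjusted p was below 0.05 and its fold change exceeded 1.5, in a fit over 17915 genes with a mean of at least 10. By this rule 10.2% of those genes were called, 5.06% of them as higher. The called members were Apob, Cubn, Amn, Rbp4 and Lrp2, and the median log2 fold change of the 9 members was 1.49, beside 0.00 for all genes tested. In bulk RNA, more cells of a type and more RNA per cell cannot be told apart.

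Apob, the structural protein of lipoprotein particles, was at 17.3, 41.1 and 19.8 normalized counts in Tet3+/+ samples and at 172.1, 222.6 and 301.4 in Tet3 m/m. Every Tet3 m/m sample was above every Tet3+/+ sample, and the log2 fold change reached 3.17 (SE 0.42, limma adjusted p 0.000987). Rbp4, which carries retinol out of the cell, was at 164, 167 and 196 in Tet3+/+ and at 704, 770 and 560 in Tet3 m/m. These groups did not overlap either, with a log2 fold change of 1.93 (SE 0.19, limma adjusted p 0.000166). Ttr, the carrier of thyroid hormone and of retinol-binding protein, was at 42.4, 32.7 and 27.7 in Tet3+/+ and at 94.2, 99.5 and 95.7 in Tet3 m/m. Its groups did not overlap, but its log2 difference of 1.49 (SE 0.51) missed the threshold at a limma adjusted p of 0.0798. It was called by edgeR (adjusted p 0.0477) and DESeq2 (0.00578), with a pseudocount of 5 (0.0411), with only the 2 compared genotypes in the fit (0.00912) and without either Tet3-/- sample (0.0109 and 0.0142).

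Afp, the major serum protein of the embryo, and Apoe, a lipid carrier made by many cell types, did not pass the test. Afp was at 11.6, 13.1 and 23.7 in Tet3+/+ and at 22.5, 16.9 and 45.8 in Tet3 m/m, which overlap, and its log2 difference was 0.72 (SE 0.61, limma adjusted p 0.48). Apoe was at 6018, 7306 and 5681 in Tet3+/+ and at 6021, 7963 and 8739 in Tet3 m/m, with a log2 difference of 0.25 (SE 0.15, limma adjusted p 0.32). The secreted members thus held both the largest difference among the members and 3 that missed the threshold.

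Among the uptake genes, Cubn, the peripheral receptor that binds many maternal ligands, had 313, 672 and 621 normalized counts in Tet3+/+ and 2252, 1724 and 4009 in Tet3 m/m. The 2 groups did not overlap, and the log2 fold change came to 2.30 (SE 0.41, limma adjusted p 0.00464). Its partner Amn, which anchors cubilin in the membrane, was at 17.3, 14.9 and 48.4 in Tet3+/+ and at 80.9, 90.2 and 130 in Tet3 m/m (log2 fold change 2.03, SE 0.55, limma adjusted p 0.0333). The Amn call was lost on leaving out Tet3+/+ replicate 1 (adjusted p 0.114) or 2 (0.116), or Tet3 m/m replicate 1 (0.0564), 2 (0.084) or 3 (0.086). Lrp2 was at 2589, 2907 and 3433 in Tet3+/+ and at 6182, 4635 and 6308 in Tet3 m/m, without overlap, and rose by a log2 fold change of 0.94 (SE 0.21, limma adjusted p 0.0135). Without Tet3+/+ replicate 1 its adjusted p was 0.0593, and the count of called members fell from 5 to 3. Dab2 was at 2995, 2614 and 2332 in Tet3+/+ and at 3045, 2848 and 4443 in Tet3 m/m, with a log2 difference of 0.36 (SE 0.18, limma adjusted p 0.228). In all, 6 of 9 members had every Tet3 m/m value above every Tet3+/+ value, a pattern that 18.4% of the genes tested showed.

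**Figure D1:**
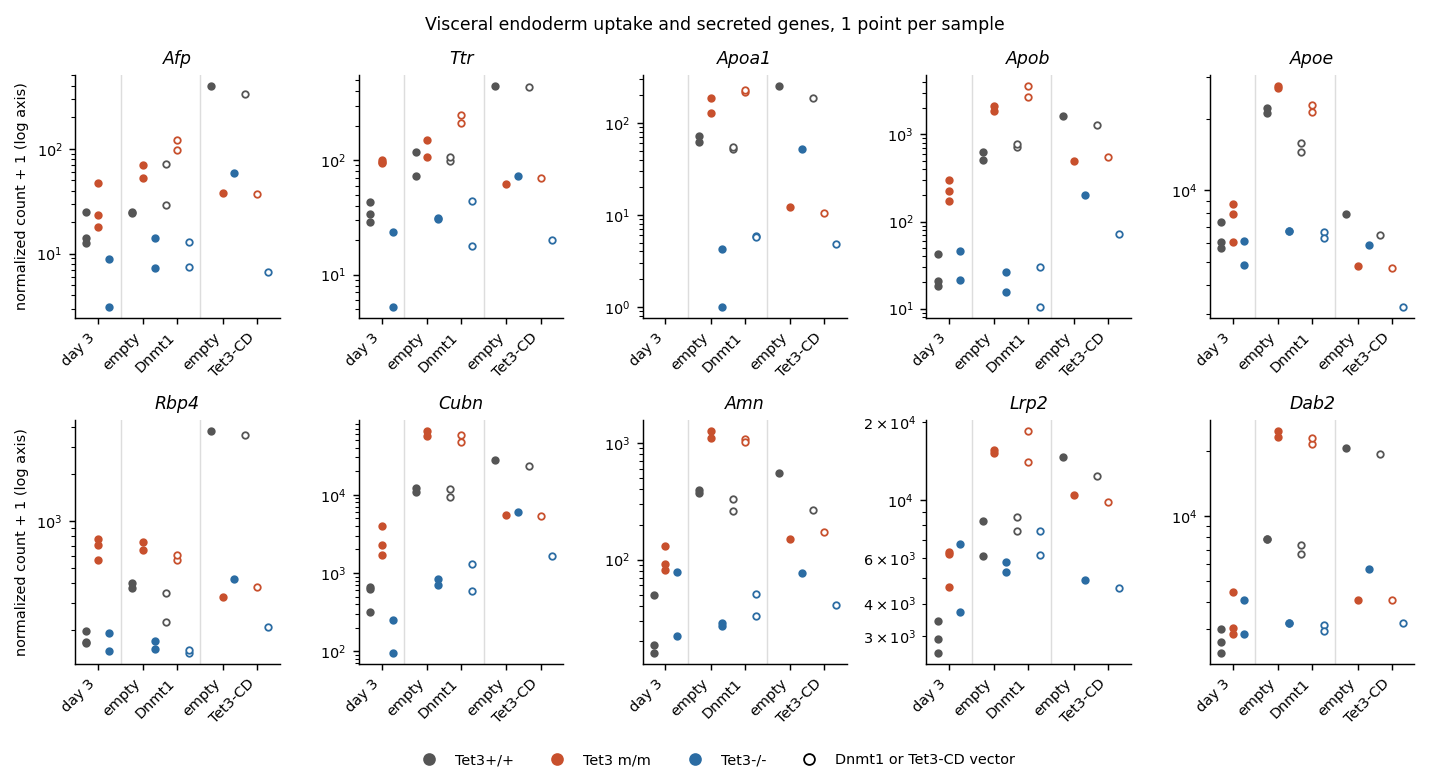
Normalized count plus 1 of each member in each of the 26 samples, on a log axis; every point is 1 sample, coloured by genotype, and open points received the Dnmt1 or Tet3-CD vector. Grey lines part the day 3, Dnmt1 and Tet3-CD experiments, whose tables were normalized separately. Cubn lay at 1724 to 4009 in day 3 Tet3 m/m samples, above 313 to 672 in Tet3+/+, while in the Tet3-CD experiment the Tet3+/+ sample with the empty vector, at 27912, lay above all others.

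Tet3-/- cells on day 3 gave no call: none of the 9 members passed against Tet3+/+ by limma, with 0.642% of all genes called. At an unadjusted p under 0.05 there were 4 members, edgeR called 0 and DESeq2 called 1. The share of 0.642% holds for limma calls only, and none is given here for these other counts. Cubn was at 95.4 and 250 normalized counts in Tet3-/-, below all 3 Tet3+/+ samples, with a log2 difference of -1.71 (SE 0.45, limma adjusted p 0.0818). This difference passed the threshold only without Tet3 m/m replicate 3, at an adjusted p of 0.042. Ttr, at 4.2 and 22.8, and Afp, at 2.1 and 8.0, also lay below the range of Tet3+/+, with log2 differences of -1.64 (SE 0.57) and -1.63 (SE 0.69). Without Tet3-/- replicate 1 the differences were -1.02 for Cubn, -0.55 for Ttr and -0.87 for Afp, and without replicate 2 they were -2.40, -2.73 and -2.39. Lrp2 went the other way, at 6773 and 3695 against 2589 to 3433, with a log2 difference of 0.76 (SE 0.23, limma adjusted p 0.109), and it was the member that DESeq2 called, at an adjusted p of 0.0128. Groups without overlap were 3 members lower and 1 higher, beside 20.4% and 20.8% of all genes.

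Set directly against Tet3 m/m, Tet3-/- cells had 5 of 9 members lower and none higher on day 3, with 9.73% of all genes called and 4.33% called as lower. The log2 fold change was -4.0 for Cubn (SE 0.45, limma adjusted p 0.000646), -3.13 for Ttr (SE 0.57, 0.00663), -2.86 for Apob (SE 0.47, 0.00416), -2.35 for Afp (SE 0.69, 0.049) and -2.0 for Rbp4 (SE 0.21, 0.000475). Cubn and Ttr were at -3.31 and -2.04 without Tet3-/- replicate 1 and at -4.70 and -4.22 without replicate 2, and stayed past the threshold. The uptake adaptor Dab2, at 2841 and 4087 in Tet3-/-, overlapped the Tet3 m/m values, as did Lrp2. In 6 of 9 members every Tet3-/- value was below every Tet3 m/m value, beside 20.2% of all genes. Apoe, at -0.46 (adjusted p 0.104), passed without Tet3 m/m replicate 1 (-0.62, 0.0184). Afp was at -1.59 without Tet3-/- replicate 1 and at -3.11 without replicate 2. Its call was lost on leaving out any 1 of the Tet3+/+ or Tet3 m/m samples (adjusted p 0.0592 to 0.158). The call was not kept without Tet3-/- replicate 1 either, a fit that left 1 sample in that group. It was also lost by edgeR (0.0665), with pseudocounts of 0.1 (0.0551) and 5 (0.0508) and with only the compared groups in the fit (0.101), and kept by DESeq2 (0.0258). These 3 comparisons share their samples and are not independent of each other.

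**Figure D2:**
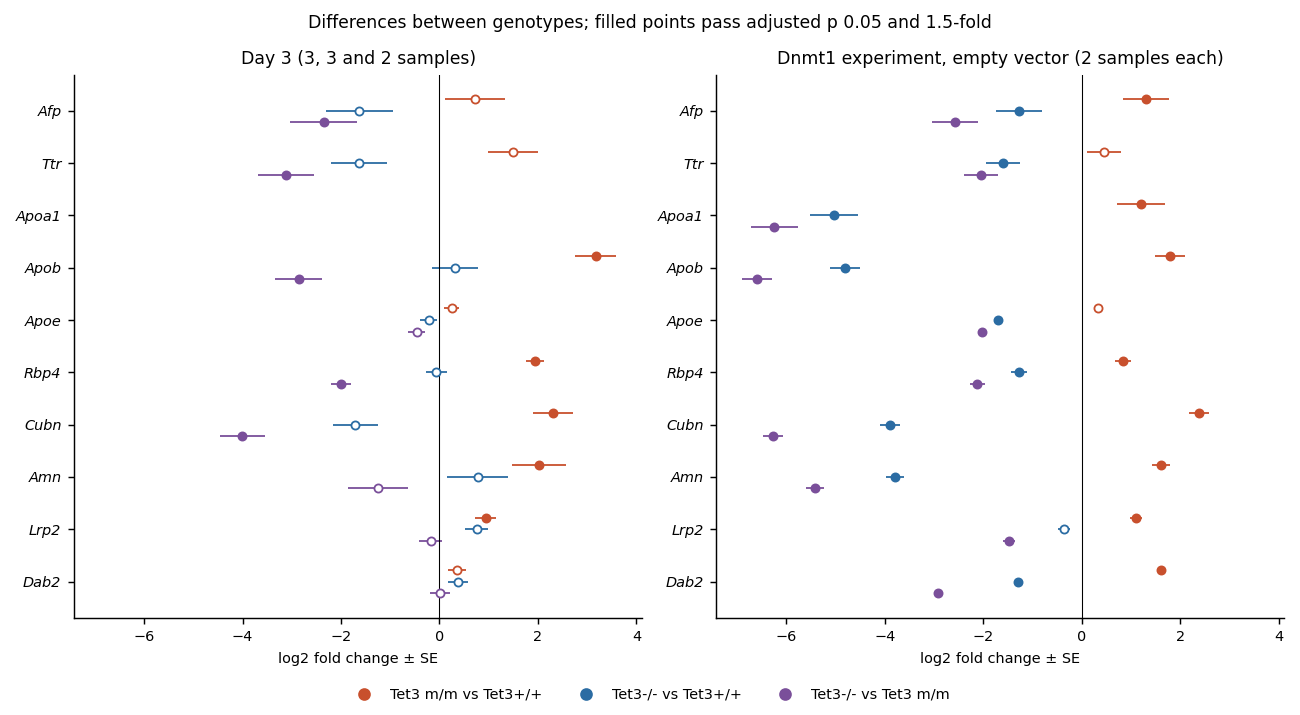
Log2 fold change of each member between genotypes on day 3 (left) and with the empty vector in the Dnmt1 experiment (right). Points are limma estimates, bars are ± 1 SE, and filled points pass the adjusted p and fold thresholds. On day 3 the Tet3 m/m calls (5 of 9) lie to the right of 0 and the Tet3-/- against Tet3+/+ points are all open, whereas in the Dnmt1 experiment 9 of 10 of the latter are filled and lie to the left.

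Genes that work beside the members were counted from lists of related function. Of 10 endoderm transcription factors, 4 rose in Tet3 m/m on day 3 and none fell: Sox7 (log2 fold change 1.46), Foxa3 (1.44), Hhex (1.09) and Foxa1 (0.64), with limma adjusted p-values of 0.0332, 0.0251, 0.00175 and 0.0152. Gata6, the most abundant factor of the list at a mean of 1893 normalized counts in Tet3+/+, differed by 0.20 (adjusted p 0.52), and Gata4 and Foxa2 by 0.65 and 0.34 without passing. Against Tet3 m/m, 7 of the 10 were lower in Tet3-/-, among them Sox7 (-2.38), Gata4 (-1.53), Foxa1 (-1.45) and Foxa2 (-1.39). The list of factors had no member called in the direction opposite to Cubn and Apob in either of these comparisons.

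Of 14 other secreted or lipoprotein genes of visceral endoderm, 8 were in the day 3 test and 6 were not among the rows of that table. In Tet3 m/m, 3 of the 8 rose and none fell: Mttp, which loads lipid onto the Apob protein (log2 fold change 0.82, limma adjusted p 0.00367), Trf, which encodes the iron carrier transferrin (1.66, 0.00388), and Apoa2 (1.92, 0.0131). Vtn, the matrix protein vitronectin, differed by -0.43 (adjusted p 0.591). Of 13 other endocytic receptors and adaptors, 2 rose and 3 fell. Lrpap1, a chaperone of megalin and its relatives, rose by 0.94 (adjusted p 0.00998) and the folate receptor Folr1 by 0.84 (0.0456), while the lipoprotein receptor Vldlr fell by 0.91 (0.00275), the adaptor Gipc1 by 0.74 (0.00449) and Scarb1 by 0.69 (0.00196). Lrp1, an abundant lipoprotein receptor, differed by 0.52 on the log2 scale, under the fold threshold, and Clcn5, a chloride transporter of endosomes, by 0.06. The median log2 fold change of these 13 genes was 0.00.

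In the Dnmt1 experiment, the same contrast with the empty vector gave 8 of 10 members higher in Tet3 m/m and none lower. Among 18055 genes tested there, 21.2% were called and 10.3% were called as higher. All genotypes of this experiment stood above their day 3 values for Cubn, but the tables were normalized separately and no test was made between them. The median log2 fold change of the members was 1.26, beside 0.01 for all genes.

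Cubn had 10788 and 12257 normalized counts for Tet3+/+ and 64569 and 55679 in Tet3 m/m, a log2 fold change of 2.38 (SE 0.20, limma adjusted p 2.97e-09). Apob was at 512 and 622 in Tet3+/+ and at 1836 and 2092 in Tet3 m/m (1.80, SE 0.30, 4.55e-05). Dab2, which had not passed on day 3, was at 7811 and 7827 against 24682 and 23368 (1.62, SE 0.05, 1.87e-16). None of these 3 pairs of groups overlapped. Amn rose by 1.62 (398 and 369 against 1258 and 1104), Lrp2 by 1.11 (6080 and 8319 against 15555 and 15159) and Rbp4 by 0.84 (373 and 400 against 659 and 732), with adjusted p-values between 9.28e-08 and 0.000154.

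Afp and Apoa1, the main protein of high-density lipoprotein, were called at low counts. Afp was at 23.7 and 23.2 in Tet3+/+ and at 51.2 and 69.0 in Tet3 m/m (1.31, SE 0.47, limma adjusted p 0.0265), and the call was lost on leaving out Tet3 m/m replicate 2 (0.16) or Tet3+/+ replicate 1 (0.084) or 2 (0.0923). Apoa1 was at 61.2 and 71.9 in Tet3+/+ and at 129 and 186 in Tet3 m/m (1.21, SE 0.48, limma adjusted p 0.047), and it was lost with a pseudocount of 0.1 (0.339), after TMM rescaling (0.0504) and on leaving out any 1 of 8 samples with either vector (0.0601 to 0.258), namely both Tet3+/+ and both Tet3 m/m samples of each vector. Apoe was at 21235 and 22221 against 27589 and 26961, and its log2 difference of 0.33 (SE 0.05, limma adjusted p 7.97e-06) was under the fold threshold. Ttr overlapped, at 71.1 and 118 against 105 and 150, so that 9 of 10 members had both Tet3 m/m values above both Tet3+/+ values, beside 36.3% of all genes.

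In Tet3-/- cells of this experiment, 9 of 10 members were lower than in Tet3+/+ with the empty vector and none was higher, with 24.9% of all genes called and 13.9% called as lower. Apob was at 14.6 and 25.4 normalized counts in Tet3-/-, a log2 fold change of -4.80 (SE 0.30, limma adjusted p 3.39e-11). Cubn was at 847 and 710 (-3.89, SE 0.20, 1.53e-12) and Amn at 26 and 27.5 (-3.79, SE 0.18, 3.88e-13). Apoa1 was at 3.2 and 0, which rests on 4 reads and 0 reads, so its fitted log2 difference of -5.03 depends on the pseudocount and on the sample (-6.07 without Tet3-/- replicate 1 and -3.99 without replicate 2). The receptor complex and lipoprotein genes thus had their lowest values of the experiment in Tet3-/- samples.

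The remaining members fell less. Apoe was at 6706 and 6708 in Tet3-/- (-1.70, SE 0.05, limma adjusted p 9.11e-17), Dab2 at 3191 and 3185 (-1.29, SE 0.05, 1.35e-14), Rbp4 at 169 and 150 (-1.27, SE 0.16, 8.15e-07) and Ttr at 30.0 and 29.6 (-1.59, SE 0.34, 0.000558). Afp, at 13.0 and 6.3, passed at -1.27 (SE 0.47, 0.0267) but not by edgeR (0.0523), with only the compared groups in the fit (0.0585), or without Tet3+/+ replicate 1 (0.0896) or 2 (0.0826) or Tet3-/- replicate 2 (0.236). Lrp2, at 5288 and 5785, differed by -0.36 (SE 0.12, limma adjusted p 0.0141), which is under the fold threshold, and passed without Tet3+/+ replicate 1 (-0.59, 0.000595). Lrp2 in Tet3-/- was thus above the Tet3+/+ range on day 3 and below it here. Against Tet3 m/m, 10 of 10 members were lower, with 39.6% of all genes called and 20.6% called as lower, from -1.47 for Lrp2 to -6.59 for Apob. All 10 members had Tet3-/- values below those of Tet3+/+ and of Tet3 m/m without overlap, beside 38.3% and 41.8% of all genes.

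With the empty vector, 8 of 10 endoderm transcription factors rose in Tet3 m/m and none fell, and in Tet3-/- 7 fell and 2 rose against Tet3+/+. Gata4, which drives extraembryonic endoderm, averaged 3643 normalized counts for Tet3+/+, 10216 for Tet3 m/m and 744 for Tet3-/-. In Tet3 m/m cells, Sox7 rose by 1.83 (limma adjusted p 3.61e-11), and in Tet3-/- it fell by 3.12 (9.74e-15), whereas Foxa1 and Foxa2 rose by 0.70 and 0.60 in Tet3-/-. Hnf4a, named here because its letters were searched in the promoters, had means of 207, 456 and 13.8 in Tet3+/+, Tet3 m/m and Tet3-/- cells. Markers of parietal endoderm, the neighbouring extraembryonic layer, rose in Tet3 m/m for 7 of 9 genes, with Lama1 at a log2 fold change of 1.76. They fell in Tet3-/- for 6 of 9, with Lama1 at -2.63. In each case 1 gene went the other way: Plat fell in Tet3 m/m by 0.66 (limma adjusted p 2.88e-08) and Thbd rose in Tet3-/- by 1.36 (9.47e-06), both named here with their values known.

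Markers of other cell types also moved with the genotype. With the empty vector, the 8 pluripotency markers summed to 26300 and 25795 normalized counts for Tet3+/+, to 77028 and 74837 in Tet3 m/m and to 7476 and 7849 in Tet3-/-. The most abundant of them was Nanog in Tet3+/+ and Tet3 m/m (means 5280 and 14470) and Tbx3 in Tet3-/- (3395). Of the 8, 7 rose and 1 fell in Tet3 m/m, and 7 fell in Tet3-/-. The 8 fibroblast markers, chosen because ESCs had been grown on feeder cells and then pre-plated to remove them, summed to 19497 and 17750 in Tet3+/+, to 2900 and 3145 in Tet3 m/m and to 36375 and 36357 in Tet3-/-, with Col1a1 the most abundant and 1 gene at 0 in 1 Tet3 m/m sample. Of these, 1 rose and 6 fell in Tet3 m/m, and 3 rose and 1 fell in Tet3-/-. On day 3 the fibroblast sum spanned 17102 to 27874 for Tet3+/+ and 10437 to 20571 for Tet3 m/m, below 42441 and 47322 for Tet3-/-, and the pluripotency sum was 7310 to 10413, 9717 to 24227 and 7839 to 10237. The highest pluripotency sum on day 3 belonged to Tet3 m/m replicate 3, which also had the highest Cubn, Apob, Amn, Afp, Apoe and Dab2 values. The part of these markers in the members' differences was not tested. Among neuroectoderm markers, Nes had a mean of 9546 and Sox2 of 3979 in day 3 Tet3+/+ cells. On day 3, 1 of these markers was at 0 in Tet3 m/m replicate 1. In Tet3 m/m on day 3, 6 of the 11 fell and none rose. Of 6 early mesoderm markers in that comparison 1 rose, Eomes, at a log2 fold change of 1.79 (limma adjusted p 0.00439), 1 of 9 parietal endoderm genes rose (Lama1, 1.05) and 1 fell (Pth1r, -0.75), and none of 3 anterior visceral endoderm genes passed.

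The same lists were counted in the Dnmt1 experiment with the empty vector. Of 11 neuroectoderm markers, 2 rose and 5 fell in Tet3 m/m, with Nes at a log2 fold change of -2.24 (limma adjusted p 3.96e-17), Zic1 at -2.68 and Pax6 at -1.93, whereas Sox2, which pluripotent cells also express, was at 1.23. In Tet3-/-, 4 rose and 3 fell, with Nes at 1.45 and Sox2 at -1.43. Of 4 genes of the anterior visceral endoderm, 3 rose in Tet3 m/m, namely Lefty1 (2.22, limma adjusted p 2.94e-11), Otx2 (2.94, 1.27e-05) and Cer1, and Dkk1 fell, while in Tet3-/- 3 fell and none rose. The mean of Cer1 was 0.99 normalized counts for Tet3+/+ and 53.2 for Tet3 m/m. Of 6 early mesoderm markers, 3 rose and 1 fell in Tet3 m/m, with Eomes at 1.95 and Hand1 at -2.32, and in Tet3-/- 1 rose and 2 fell. The part of these lists in the members' differences was not tested.

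**Figure D3:**
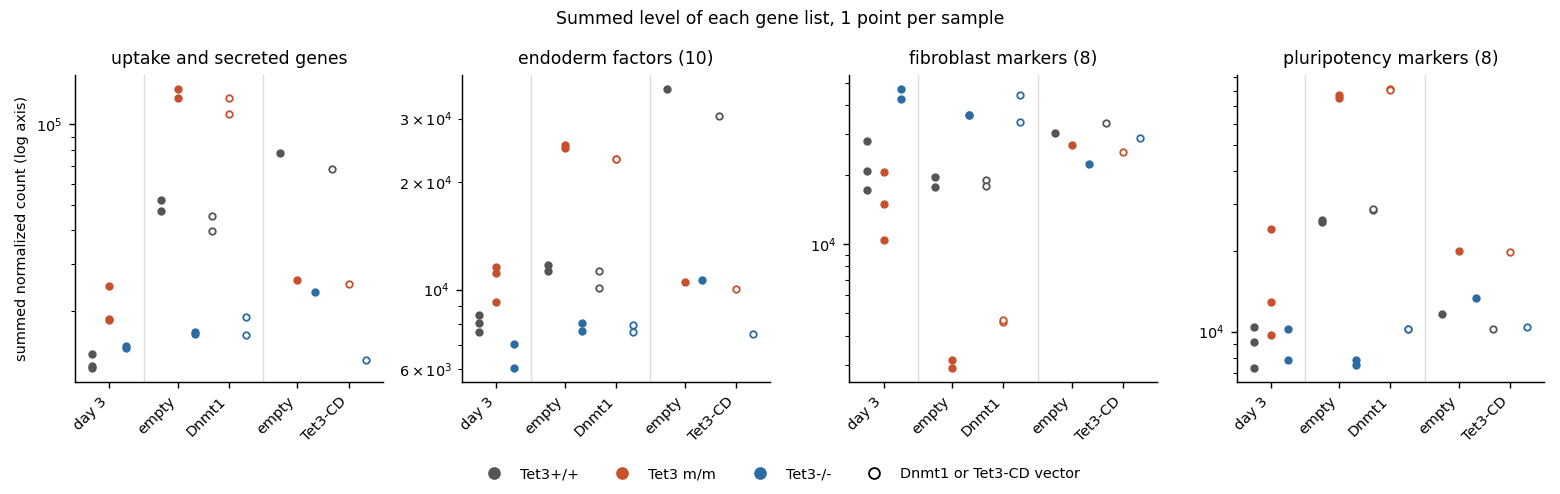
Summed normalized counts on a log axis of the members (9 on day 3, 10 elsewhere), of 10 endoderm transcription factors, of 8 fibroblast markers and of 8 pluripotency markers, 1 point per sample with colours and open points as in the plot of single members. With the empty vector of the Dnmt1 experiment, the members sum to 136433 and 125499 in Tet3 m/m and to 16288 and 16626 in Tet3-/-, and the fibroblast markers stand in the reverse order.

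The effect of the Dnmt1 vector was tested within each genotype. In Tet3+/+ and in Tet3 m/m cells limma called 0 of 10, where 1.17% and 2.46% of all genes were called. In each genotype 4 members were at an unadjusted p under 0.05. By edgeR the counts were 0 and 2, and by DESeq2 0 and 1. The shares given are those of limma calls, and none is given for the unadjusted, edgeR or DESeq2 counts. The members that these tools called in Tet3 m/m were Ttr, at 105 and 150 with the empty vector and 213 and 247 with Dnmt1 (log2 difference 0.86, SE 0.34, limma adjusted p 0.125), and Apob, at 1836 and 2092 against 2661 and 3634 (0.67, SE 0.30, 0.189). By limma both passed without Tet3-/- replicate 1 (Ttr 0.0379, Apob 0.0153) or 2 (0.0326, 0.0136) of the Dnmt1 vector, and with only the compared groups in the fit (0.0248, 0.00567). Apoe had a small difference with a low SE, which rests on a spread between samples that may be technical. In Tet3+/+ it went from 21235 and 22221 to 14471 and 15812 (-0.52, SE 0.05, limma adjusted p 1.93e-06). For Tet3 m/m it went from 27589 and 26961 to 22749 and 21417 (-0.31, SE 0.05, 0.000221). Both differences were under the fold threshold. Without Tet3+/+ replicate 2 of the Dnmt1 vector, Apoe passed in Tet3+/+ at -0.59 (1.76e-05) and Rbp4 at -0.78 (0.0125). Cubn, the member with the highest count in Tet3 m/m, was at 46595 and 57373 with Dnmt1, which overlaps its empty vector values.

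In Tet3-/- cells 1 of 10 members was called, as higher, beside 3.53% of all genes called and 2.51% called as higher. This was Apoa1, at 3.2 and 0 normalized counts with the empty vector and 4.8 and 4.8 with Dnmt1, which are 4, 0, 6 and 4 reads. Its log2 difference was 1.49 (SE 0.48, limma adjusted p 0.0459). It was 0.61 with a pseudocount of 5, 2.53 without Tet3-/- replicate 1 of the empty vector and 0.45 without replicate 2. The call was lost with a pseudocount of 5 (0.221), by edgeR (0.337), by DESeq2 (0.328) and with only the compared groups (0.426). It was also lost on leaving out any 1 of 11 samples of the experiment. Amn was at 26 and 27.5 with the empty vector and 49.8 and 32.1 with Dnmt1 (0.57, SE 0.18, limma adjusted p 0.0445), under the fold threshold. Without Tet3-/- replicate 2 of the Dnmt1 vector, Amn passed at 0.87 (0.00344) and Cubn at 0.74 (0.000233), while without replicate 1 of that vector Apob passed at -0.95 (0.0039). In groups of 2 without overlap, 2 members were higher and 5 lower with Dnmt1 in Tet3+/+, beside 26.5% and 26.2% of all genes, 4 and 4 in Tet3 m/m, beside 26.9% and 26.6%, and 3 and 3 in Tet3-/-, beside 27.3% and 24.7%.

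With Dnmt1, Cubn and Apob kept the order of genotypes seen with the empty vector. For Cubn the Dnmt1 vector samples gave 9437 and 11812 normalized counts (Tet3+/+), 46595 and 57373 (Tet3 m/m) and 1299 and 593 (Tet3-/-). For Apob they gave 720 and 781, 2661 and 3634, and 28.9 and 9.5 in the same order. A test of whether the Dnmt1 effect differed from that in Tet3+/+ called 0 of 10 members in Tet3 m/m, beside 0.604% of all genes by limma. There 1 member was at an unadjusted p under 0.05 and 0 were called by edgeR and by DESeq2, without a share of all genes given. The same test called 1 of 10 in Tet3-/- (3.99% of all genes, 2.66% as higher). This was Amn, with a difference of effects of 0.95 (SE 0.26, limma adjusted p 0.0224). Its 6 settings without a call were the fit of the compared groups alone (0.102) and those without Tet3+/+ replicate 1 (0.0931) or 2 (0.054) of the empty vector, Tet3+/+ replicate 1 of Dnmt1 (0.14), or Tet3-/- replicate 1 of the empty vector (0.0569) or of Dnmt1 (0.0698). Apoe had a difference of effects of 0.47 (SE 0.07, limma adjusted p 0.000137), under the fold threshold. Apoa1, at 1.82 (adjusted p 0.106), passed without Tet3-/- replicate 1 of the empty vector (2.86, 0.00219).

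**Figure D4:**
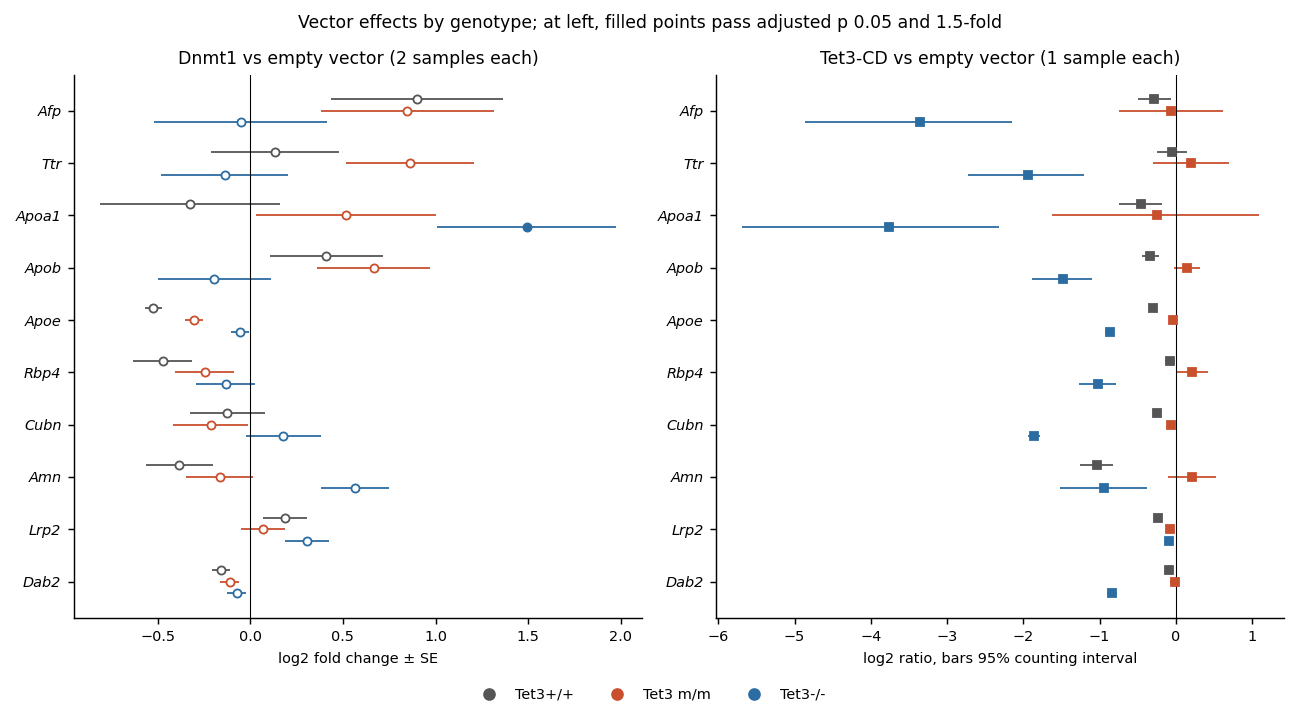
Left, log2 fold change with the Dnmt1 vector against the empty vector in each genotype, as limma estimates ± 1 SE with filled points past the thresholds; right, log2 ratio of the single Tet3-CD sample to the single empty vector sample, with 95% counting intervals. At left only Apoa1 in Tet3-/- is filled. At right the Tet3-/- squares lie to the left of 0 for all 10 members, down to a ratio of 0.0739 for Apoa1, and the Tet3 m/m squares lie around 0.

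In the Tet3-CD experiment each group was 1 sample, so no difference has a replicate check, intervals cover counting error only, and being past a fold of 1.5 is a description. With the empty vector the order of genotypes differed from the other experiments: all 10 members were highest in Tet3+/+. The later collection of these cells and their vector cannot be told apart from the experiment. Cubn had 27912 normalized counts for Tet3+/+, 5508 for Tet3 m/m and 6071 for Tet3-/-. Rbp4 was at 3775, 329 and 427, Apob at 1624, 497 and 200 and Afp at 400, 37.2 and 58.1. In Tet3 m/m, 9 of 10 members were past 1.5-fold lower than in Tet3+/+, beside 16.1% of all genes, and in Tet3-/- also 9 of 10, beside 11.7%. The ratio of Tet3 m/m to Tet3+/+ was 0.197 for Cubn (95% exact binomial interval 0.192 to 0.203), 0.087 for Rbp4 (0.0778 to 0.0971) and 0.715 for Lrp2 (0.698 to 0.733), the member nearest to equality. Between Tet3-/- and Tet3 m/m, 2 members (Afp, Apoa1) were higher past 1.5-fold in Tet3-/- and 3 (Apob, Amn, Lrp2) lower, beside 17.0% and 17.8% of all genes. The 2 higher ones rest on few reads: Afp on 58 and 40 (ratio 1.56, 1.03 to 2.40) and Apoa1 on 51 and 12 (4.58, 2.41 to 9.43). The level of Tet3 was 4755 in Tet3+/+, with 1850 for Tet3 m/m and 2070 for Tet3-/-.

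Of the endoderm factors, 8 of 10 were lower past 1.5-fold than Tet3+/+ in Tet3 m/m and 10 of 10 in Tet3-/- with the empty vector. Gata4 was at 14098, 2522 and 3106 and Hnf4a at 995, 106 and 190 in Tet3+/+, Tet3 m/m and Tet3-/-. The fibroblast sum was 30382, 26890 and 22287, so that here it did not stand opposite to the members. The pluripotency sum was 11682, 20066 and 13406, with 6 of 8 markers higher and 1 lower past 1.5-fold in Tet3 m/m and likewise in Tet3-/-. The 9 parietal endoderm genes summed to 1221945, 272496 and 352856. In Tet3 m/m and in Tet3-/-, 8 of these 9 were lower past 1.5-fold and none was higher. Of 11 neuroectoderm markers, 7 were lower and 2 higher past 1.5-fold in Tet3 m/m, and 1 lower and 2 higher in Tet3-/-. The part of these lists in the difference was not tested.

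Set against the empty vector within Tet3-/- cells, Tet3-CD left 9 of 10 members past 1.5-fold lower and none past it higher, beside 11.6% of all genes lower. Cubn went from 6071 to 1670 normalized counts, a ratio of 0.275 (0.261 to 0.29), and Ttr from 72.2 to 18.9, a ratio of 0.262 (0.151 to 0.435). Apoa1 was at 51.1 and 3.8 (51 and 4 reads) and Afp at 58.1 and 5.7 (58 and 6 reads), so that both had almost no reads with Tet3-CD. Apoe and Dab2 had ratios of 0.549 (0.526 to 0.573) and 0.561 (0.537 to 0.585), and Lrp2, at 4908 and 4603, was the exception with 0.938 (0.901 to 0.976). Other lists also held genes past 1.5-fold in this pair of samples: 5 of 10 endoderm factors were lower and 1 higher, 4 of 9 parietal endoderm genes lower, 5 of 8 pluripotency markers lower, and 6 of 11 neuroectoderm markers lower and 2 higher, with Nes at 5042 and 12359. With Tet3-CD the fibroblast sum went from 22287 to 28746 and the pluripotency sum from 13406 to 10385. The part of these markers in the members' difference was not tested. Tet3 reads rose less here than in Tet3 m/m, from 2070 to 2759 normalized counts against 1850 to 5232.

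In Tet3 m/m none of the 10 members was past 1.5-fold with Tet3-CD, where 10.1% of all genes were. Cubn was at 5508 and 5287 (ratio 0.96, 0.925 to 0.996) and Apob at 497 and 550 (1.11, 0.983 to 1.25). In Tet3+/+, Amn alone was past 1.5-fold, at 548 and 268 (ratio 0.489, 0.42 to 0.567), beside 7.3% of all genes lower, and all 10 members had a lower value with Tet3-CD, from 0.727 for Apoa1 to 0.967 for Ttr among the other 9. With 1 sample each, no test of whether these effects differ between genotypes was made.

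Per length of exon, Apoe was the most abundant member in every group, at a mean of 2963 normalized counts per kb in day 3 Tet3+/+ cells, above 96.8% of all genes with a known length. Dab2 followed at 361, Lrp2 at 178 and Rbp4 at 131, while Cubn stood at 35.8, Ttr at 28.9, Amn at 14.6, Afp at 4.79 and Apob at 1.87, the last below all but 1.3% of genes. A gene of median level had 160 normalized counts per kb in that group. In day 3 Tet3 m/m cells, Afp and Apob stood above 9.2% and 16.7% of genes. With the empty vector of the Dnmt1 experiment, Cubn was at 772 per kb in Tet3+/+, above 83.4% of genes, and at 4026 per kb in Tet3 m/m, where it was second after Apoe at 12757. Afp was at 6.96 per kb in that Tet3+/+ group, above 8.6% of genes, and Apob at 40.7, above 30% of genes. In the Tet3+/+ cells of day 3, Apoe, Dab2 and Lrp2 thus stood above the median gene, while Rbp4, Cubn, Ttr, Amn, Afp and Apob stood below it.

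The genes most like each member were listed over the 26 samples, with log2 values centred within each experiment, among 12125 genes with a mean of at least 100 in all 3 tables. Cubn was most like Srgn (Pearson r 0.985) and Ctsh (0.981), Apob most like Tdh (0.974) and Ctsh (0.963) and Dab2 most like Lamc1 (0.98) and Cst3 (0.979). Apoa1, over 18 samples, was also most like Srgn (0.97), followed by Car12 (0.967), and Apoe most like Npl (0.958) and Prelid2 (0.954). Amn went with Nrg2 (0.951) and Ubash3b (0.942), Rbp4 with Pcbd1 (0.939) and Cited1 (0.922), Afp with Fth1 (0.926) and Nucb2 (0.901), Ttr with Gli1 (0.918) and Srgn (0.911) and Lrp2 with Dgkk (0.908) and Elovl2 (0.901). The samples share vectors, genotypes and depth within an experiment, so these values describe the libraries and carry no test. Cubn overlaps the noncoding gene Gm13270 on the other strand, whose mean was 13.7 normalized counts in the Dnmt1 experiment. It is not stated whether the counting used strand, and reads from the 2 genes cannot then be told apart. Genes of the members' chromosomes had median log2 differences between -0.122 and 0.084 in all comparisons.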

How the data were processed

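RNA-seq of 26 of the 35 samples of the series was used, and the other assays were not analysed here. According to the study's methods and the submitters' processing notes, the authors trimmed reads with Trim Galore 0.6.7, aligned them with STAR 2.7.9a, counted them with featureCounts and normalized them with DESeq2. The methods name the mm39 build and the labels mm10, and whether counting used strand is not given in the sources used here. The deposited signal values are read counts divided by a size factor per library, in 3 tables normalized separately. Dividing by the step of each library gave whole reads for 100.0% of values (tolerance 0.01 reads), and 0 per-sample columns were left unmapped.

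From these, log2(value + 1) was fitted with limma 3.58.1 (R 4.3.3; moderated test with trend) over genes with a mean of at least 10, with all groups of an experiment in 1 fit and Benjamini-Hochberg adjustment over all genes. Fold changes are on this scale, which understates the change of low genes. Calls needed an adjusted p below 0.05 and a fold above 1.5. Alternatives were pseudocounts of 0.1 and 5, no filter, a minimum of 50, edgeR 4.0.16 (quasi-likelihood) and DESeq2 1.42.0 on the recovered reads, TMM rescaling, the compared groups alone, no fold threshold, a replicate block and leaving out each sample. The scripts were tested on simulated data. Exon lengths came from GENCODE vM21, and 97.2%, 97.0% and 97.2% of genes of the day 3, Dnmt1 and Tet3-CD tables had one. Ratios of single libraries have exact binomial 95% intervals. The members, lists and tests were chosen with earlier results of these data known. Genes named besides the members come from the 3 most abundant of each list on day 3, those of a list called on day 3, and the 2 genes most like each member. Hnf4a, Cer1, Plat and Thbd were picked with their values known. In the Dnmt1 table both Tet3+/+ empty vector columns have 1 name, so replicate 1 and 2 of that group are names only. Results for some genes are not reported here.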

Additional observations from a re-analysis of the deposited data

Results flagged for a closer look

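For every member, the difference of Tet3 m/m from Tet3+/+ with the empty vector had the opposite sign in the Tet3-CD experiment from that in the other experiments, and the difference between experiments was not tested. By the study's methods these cells were also collected later than those of the other experiments. On the scale of log2(value + 1), with 1 sample per group, it was -3.39 for Afp, -2.87 for Ttr, -4.39 for Apoa1, -1.71 for Apob, -0.73 for Apoe and -3.52 for Rbp4 among the secreted proteins. Among the uptake genes it was -2.34 for Cubn, -1.88 for Amn, -0.48 for Lrp2 and -2.33 for Dab2. The corresponding day 3 and Dnmt1 experiment values were 2.30 and 2.38 for Cubn, 3.17 and 1.80 for Apob and 1.93 and 0.84 for Rbp4. In at least 1 of those experiments every Tet3 m/m sample of the member was above every Tet3+/+ sample.

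Lrp2 also differed in sign for Tet3-/- against Tet3+/+, at 0.76 on day 3, with -0.36 among the Dnmt1 experiment samples and -1.58 between the single Tet3-CD experiment samples, and this was not tested.

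Between Tet3-/- and Tet3+/+ cells the effect of the Dnmt1 vector differed for Apoe by 0.47 on the log2 scale (limma adjusted p 0.000137). This is under the fold threshold, so Apoe was not called. For Amn it differed by 0.95 (limma adjusted p 0.0224). That call was lost in 6 settings, among them the fit of the compared groups alone (0.102). Amn was at 398 and 369 normalized counts with the empty vector and 259 and 333 with Dnmt1 in Tet3+/+, and at 26 and 27.5 against 49.8 and 32.1 in Tet3-/-.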

How the results depend on the processing

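Of the values for single members under the alternatives, 1920 counted as unchanged. A further 58 were no longer past the threshold, 31 were newly past it and 22 changed sign, and the cause was not tested. Unchanged meant the same direction and side of the threshold. For the single samples of the Tet3-CD experiment it meant the same direction and a value within or near the counting interval, whatever the side of 1.5-fold. The count of members called in Tet3-/- against Tet3+/+ on day 3 was 0, and 1 by DESeq2. Shares of all genes under the alternatives are not given here. For the Dnmt1 vector in Tet3-/-, 1 member was called, against 0 with a pseudocount of 5, by edgeR, by DESeq2, with only the compared groups and with the replicate block, and 2 without a fold threshold. In Tet3 m/m 0 were called, against 2 by edgeR, 1 by DESeq2, 2 with only the compared groups and 1 without a fold threshold. In Tet3+/+ 0 were called, against 1 without a fold threshold. For the difference of the Dnmt1 effect between Tet3-/- and Tet3+/+ 1 was called, against 2 without a fold threshold and 0 with only the compared groups. The log2 difference with Dnmt1 in Tet3-/- turned from -0.14 to 0.0926 (edgeR) and 0.0646 (DESeq2) for Ttr, and from -0.19 to 0.126 and 0.0394 for Apob.

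Leaving out 1 sample at a time, with a lone sample assumed to vary like the other groups, gave 3 to 6 called members for Tet3 m/m against Tet3+/+ on day 3, 0 to 1 for Tet3-/- against Tet3+/+, and 4 to 5 for Tet3-/- against Tet3 m/m. With the empty vector of the Dnmt1 experiment the ranges were 6 to 8, 8 to 9 and 10 to 10. For the Dnmt1 vector they were 0 to 2 in each genotype and 0 to 2 for the difference between Tet3-/- and Tet3+/+. Log2 differences that changed sign were, for Tet3-/- against Tet3+/+ on day 3, Apob (-0.2306 to 0.8526), Amn (-0.1335 to 1.6866) and Rbp4 (-0.2565 to 0.1275), and against Tet3 m/m, Lrp2 (-0.6138 to 0.2604) and Dab2 (-0.2495 to 0.2751). For the Dnmt1 vector they were Ttr (-0.2294 to 0.4964), Cubn (-0.2851 to 0.0387) and Lrp2 (-0.0408 to 0.4114) in Tet3+/+, Lrp2 (-0.1289 to 0.262) in Tet3 m/m, and Afp (-0.5149 to 0.4142), Ttr (-0.8039 to 0.5267), Apob (-0.9484 to 0.5608) and Cubn (-0.3872 to 0.744) in Tet3-/-.

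Replicate numbers did not pair the samples: same-numbered deviations correlated at -0.098 to 0.082 on day 3 and at -0.053 to 0.029 in the Dnmt1 experiment. With the replicate block, the counts of called members were 5, 0 and 4 on day 3 (Afp between Tet3-/- and Tet3 m/m was lost, adjusted p 0.104) and 10 for Tet3-/- against Tet3 m/m with the empty vector. No paired analysis was made for contrasts with the Tet3+/+ empty vector group, whose 2 columns of values share 1 name. The same holds for the Tet3-CD experiment. Low counts of Afp and Apoa1 and groups of 1 or 2 samples limit the precision.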
